A study of Rattus norvegicus with 20 samples.

Results

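The 8 genes Gfap, Aldh1l1, Aqp4, Slc1a2, Slc1a3, S100b, Gja1 and Aldoc are genes that astrocytes are known for. They were followed in spots of rat brainstem cut out around globular bushy cells. Every probe set whose platform annotation names exactly 1 gene with one of these symbols was taken. This gave 15 probe sets, of 20832 that name 1 gene and of 14218 genes on the array: 3 each for Aqp4, Slc1a3 and Gja1, 2 for Slc1a2 and 1 each for Gfap, Aldh1l1, S100b and Aldoc. Probe sets were taken by annotation alone, but the 8 genes were chosen with earlier results of these data known.

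Globular bushy cells are excitatory neurons of the ventral cochlear nucleus, and each sends its axon to the other side of the brainstem, where it ends in the calyx of Held. The animals were Sprague Dawley rats with no genetic change named in the labels. The tracer cholera toxin B, carrying a fluorescent label, had been injected into the medial nucleus of the trapezoid body of the opposite side in all of them, and they were killed 24 hours later. The brain was frozen, sections of 12 µm were cut, and 200 labelled cells per animal were taken by laser microdissection, after which their RNA was amplified. Cells came from 6 animals at P3 (postnatal day 3), shortly after the calyx forms, from 9 animals at P8, a juvenile stage, and from 5 animals at P21, when the synapse is mature. Each array held the pooled cells of 1 animal, and litters are not given. A spot cut from such a section can hold processes of neighbouring cells, so the RNA of the 8 genes may come from astrocytes or from the labelled neurons; which of them it came from was not tested.

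Astrocytes are the glial cells that wrap synapses and blood vessels. They take up the glutamate that synapses release, turn it into glutamine, and pass ions and small molecules among themselves through gap junctions. Early in postnatal life they develop from radial glia and from dividing precursors, and lose the genes of that state as their fine processes grow. After an injury they turn reactive, a state in which Gfap and a set of secreted proteins rise.

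All values are log2(intensity + 1), and a change is a difference of group means on that scale with its standard error. P8 replicates 5 to 9 are described apart, and P8 stands for replicates 1 to 4 unless stated. On P8 replicates 5 to 9 the median intensity was 58.9 to 67.5, against 23.8 to 32.5 on the other 15 arrays. Their hybridisation controls averaged 13.02 ± 0.40 (SD, n = 5), against 8.57 ± 0.35 (SD, n = 4) on P8 replicates 1 to 4, and their correlation with the other arrays across probe sets was 0.610 to 0.714, against 0.871 or more among the other 15. The difference between the 3′ and 5′ probe sets of GAPDH, which grows as RNA fragments get shorter, averaged 2.91 ± 0.27 at P3 (SD, n = 6), 3.27 ± 0.42 at P8 (n = 4) and 3.99 ± 0.66 at P21 (n = 5). The same difference for actin averaged 4.70 ± 0.30 at P3 (SD, n = 6). It averaged 4.29 ± 0.19 at P8 (n = 4) and 4.32 ± 0.69 at P21 (n = 5). From P3 to P21 the mean thus rose for GAPDH and fell for actin. Whether RNA fragments were shorter at P21 was not tested. Of 14 genes listed for bushy cells and fast auditory neurons, 10 rose between P3 and P21, where 21.8% of 11835 genes rose and 19.8% fell, with 1 probe set each. All 11 tested genes of the list for oligodendrocytes were higher at P21 than at P3, with summed intensities of 823 to 2186 at P3, 5722 to 8904 at P8 and 7286.5 to 10840.4 at P21, and none of its 12 measured genes was at 0 on every array. The part of these cells and of RNA length in the results below was not tested, beyond the fit with the GAPDH difference as a covariate where it is named. The actin difference was not used as a covariate.

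Slc1a3, the transporter GLAST that predominates in young astrocytes and radial glia, was 4.23-fold lower at P21 than at P3 in its brightest probe set. Its probe set 1371130_at was 2.73-fold lower, and the dim 1388064_a_at was not called. Slc1a2, the transporter GLT-1 that takes over most uptake in the mature forebrain, was dim. Its tested probe set was above log2 4 on all 5 P21 arrays, on 0 of the 4 P8 arrays and on 1 of the 6 P3 arrays. The size of its change, given below on the log2 scale, thus rests on values too dim to be read. In spots of this kind fewer cells of a type and less RNA per cell cannot be told apart.

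The 250 bases before the outermost annotated start of both genes are printed because these are the glutamate transporters among the 8 genes. They are from RefSeq on build GRCr8, read 5′ to 3′ on the strand of the gene. Slc1a3 lies at chr2:59557809-59558058 on the minus strand, and its capitals mark ACAAAG, a core that SOX factors bind, from -112 to -107 of the start, and TGCCAA, the other strand of the TTGGCA core of NFI factors, from -85 to -80. Slc1a2 lies at chr3:109459859-109460108 on the plus strand, and its capitals mark TTC and GAA with 4 free bases between them, a form that STAT factors can bind, from -111 to -102.
Slc1a3: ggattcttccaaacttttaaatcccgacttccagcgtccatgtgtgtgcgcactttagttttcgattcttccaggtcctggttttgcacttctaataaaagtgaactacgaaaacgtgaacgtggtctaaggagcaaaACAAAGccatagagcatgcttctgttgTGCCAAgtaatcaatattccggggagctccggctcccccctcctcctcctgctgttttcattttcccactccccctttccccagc
Slc1a2: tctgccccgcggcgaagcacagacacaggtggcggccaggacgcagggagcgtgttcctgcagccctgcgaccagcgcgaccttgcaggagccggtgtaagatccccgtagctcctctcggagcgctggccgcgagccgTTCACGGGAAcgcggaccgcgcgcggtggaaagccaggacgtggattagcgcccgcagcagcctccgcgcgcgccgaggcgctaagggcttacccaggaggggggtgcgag

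Searched on both strands, TTGGCA stood in 11.6% of the 27457 windows of this length, ACAAAG in 15.9% and TTC and GAA with 4 free bases between them in 6.3%. The full NFI palindrome, TTGGC and GCCAA with 5 free bases between them, in 0.0401% of windows, the narrower STAT form TTCNNNGAA, in 7.5%, and ACAATG, in 10.9%, were in none of the 8 windows. A match is a run of letters and no sign of binding, and the motifs were chosen with the values known.

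The probe set of Slc1a3 with the highest mean, 1368565_at, read 10.27 to 11.16 on the 6 P3 arrays with a median of 10.73. It read 9.42, 9.76, 9.49 and 9.85 on the 4 P8 arrays and 8.22, 8.71, 8.23, 9.27 and 8.91 on the 5 P21 arrays. No 2 ages overlapped, and each step was down. P8 was below P3 by a change of -1.12 ± 0.22 (adjusted p = 0.00434), P21 below P8 by a change of -0.96 ± 0.23 (adjusted p = 0.0103) and P21 below P3 by a change of -2.08 ± 0.21 (adjusted p = 2.30e-06). All 3 calls were kept in each of the 15 fits that left out an array.

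Of the other 2 probe sets of Slc1a3, 1 fell and 1 did not pass the threshold. Probe set 1371130_at averaged 6.32 ± 0.24 at P3 (SD, n = 6), 6.38 ± 0.39 at P8 (n = 4) and 4.87 ± 0.36 at P21 (n = 5). It was lower at P21 than at P8 (-1.51 ± 0.22, adjusted p = 3.76e-04) and than at P3 (-1.45 ± 0.20, adjusted p = 4.77e-05), with no overlap, while P8 minus P3 was 0.06 ± 0.21 (adjusted p = 0.878). The dim 1388064_a_at, above log2 4 on 10 of 15 arrays, had changes of -0.74 ± 0.26 from P3 to P8 (adjusted p = 0.0649, no overlap), 0.17 ± 0.27 from P8 to P21 (adjusted p = 0.719) and -0.58 ± 0.24 from P3 to P21 (adjusted p = 0.0726), so none of its changes passed the threshold. So 1368565_at was lower at each step and 1371130_at only at the later one; the difference between the probe sets was not tested.

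For Slc1a2 the tested probe set, 1369694_at, lay between 2.70 and 4.01 on the P3 arrays, with a median of 2.98. On the P8 arrays it read 3.56, 2.32, 2.63 and 3.19, and on the P21 arrays 4.37, 4.36, 4.32, 4.66 and 4.20. P21 stood above every array of P8 and of P3, whereas P3 and P8 overlapped. The probe set passed the filter on dim values through 6 arrays, of which 5 are the P21 arrays, so its P21 values put it into the test and the p-values below are not independent of that. The difference was 1.25 ± 0.26 between P21 and P3 (adjusted p = 0.00129), 1.46 ± 0.28 between P21 and P8 (adjusted p = 0.00273) and -0.21 ± 0.27 between P8 and P3 (adjusted p = 0.644). With intensities under 16 raised to 16, every P3 and P8 array stood at that floor and P21 was 0.29 above it (adjusted p = 0.0337 against P3 and 0.0926 against P8). The other probe set, 1369693_a_at, was above log2 4 on 0 of the 15 arrays and was not tested. It averaged 2.13 at P3, 2.03 at P8 and 2.06 at P21.

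With the GAPDH difference as a covariate the change from P3 to P21 was -2.24 for 1368565_at of Slc1a3 (adjusted p = 2.53e-04) and -1.44 for 1371130_at (adjusted p = 0.00436).

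Of 13 tested genes that handle glutamate and glutamine, 3 rose and 4 fell between P3 and P21, with a median change of -0.26, against 0.04 over all genes, of which 21.8% rose and 19.8% fell. The GAPDH covariate left 2 that rose and 2 that fell, where 1801 of all 15650 tested probe sets rose and 1603 fell. Slc38a2, which carries glutamine into neurons, was higher by 1.12 ± 0.18 (adjusted p = 1.64e-04), and Slc38a5, a glutamine carrier of glia, had a change of -2.57 ± 0.46 (adjusted p = 4.47e-04). The neuronal glutamate transporter Slc1a1 fell by 0.92 ± 0.17 on the log2 scale (adjusted p = 7.44e-04) and Slc1a4, which carries serine and alanine, by 0.75 ± 0.16 (adjusted p = 0.00204, or 0.0521 with the GAPDH covariate). Glul, the glutamine synthetase that marks astrocytes, averaged 10.18 ± 0.28 at P3, 10.01 ± 0.29 at P8 and 9.97 ± 0.19 at P21 (SD, n = 6, 4 and 5), and none of its changes passed the threshold (from P3 to P21, adjusted p = 0.333).

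**Figure D1:**
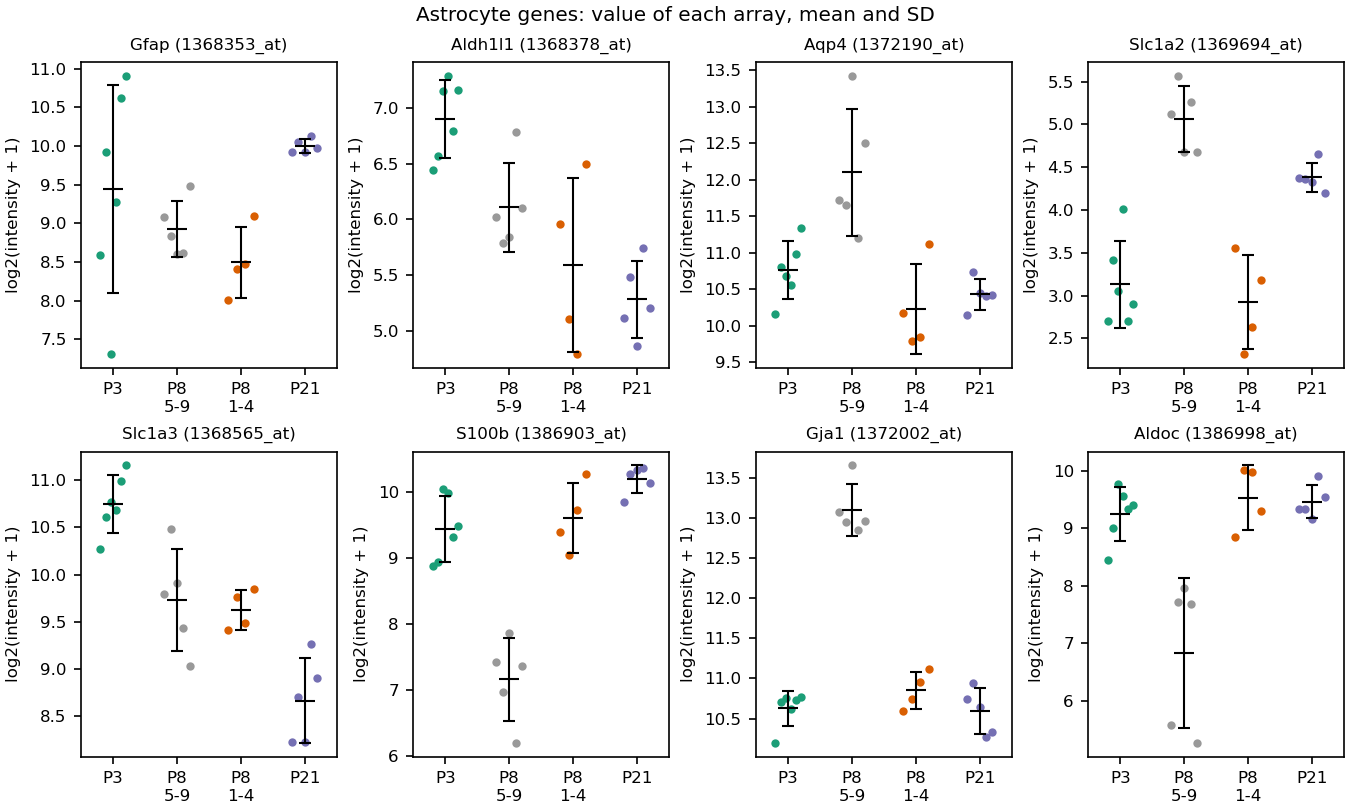
Each panel plots 1 probe set per gene, that with the highest mean, with a point for each array in log2(intensity + 1) at P3, P8 replicates 5 to 9, P8 replicates 1 to 4 and P21; the black bar and whiskers are the mean and SD. The panel of Slc1a3 steps down over P3, P8 replicates 1 to 4 and P21, and that of Aldh1l1 is lower at P21 than at P3. P8 replicates 5 to 9 lie above all other arrays in Gja1 and Slc1a2 and below them in S100b and Aldoc.

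Aldh1l1, the folate enzyme used as a general marker of astrocytes, was lower at P8 and at P21 than at P3. Its only probe set read 6.44 to 7.29 at P3 with a median of 6.98, then 5.96, 5.10, 4.79 and 6.50 at P8 and 5.11, 5.49, 4.86, 5.75 and 5.21 at P21. All P21 arrays lay below all P3 arrays, while 1 of the 4 P8 arrays, replicate 4, reached into the P3 range. The change was -1.31 ± 0.30 from P3 to P8 (adjusted p = 0.00984) and -1.62 ± 0.28 from P3 to P21 (adjusted p = 3.67e-04), which is 3.08-fold. From P8 to P21 it was -0.31 ± 0.31 (adjusted p = 0.548). Both comparisons with P3 were called in all 15 fits that left out an array, and with the GAPDH covariate P21 minus P3 was -1.47 (adjusted p = 0.0253).

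Relatives of Aldh1l1 moved in both directions. Aldh1l2, its mitochondrial paralog, was lower at P21 than at P3 (-3.74 ± 0.53, adjusted p = 5.66e-05), and so was Aldh2, which clears acetaldehyde (-1.13 ± 0.26, adjusted p = 0.00346). Aldh1a1, which makes retinoic acid, was higher (1.82 ± 0.38, adjusted p = 0.00153). With the GAPDH covariate the calls of Aldh2 (-0.90, adjusted p = 0.12) and Aldh1a1 (0.71, adjusted p = 0.254) were lost.

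Gfap, the intermediate filament protein of astrocytes, had the widest spread of the 8 genes at P3 and the narrowest at P21. On P3 replicates 1 to 6 it read 8.59, 9.93, 7.32, 9.27, 10.63 and 10.90. At P8 it read 8.00, 8.41, 8.47 and 9.10, and at P21 9.93, 10.05, 9.92, 10.13 and 9.97. The SD was 1.35 at P3 (n = 6), 0.45 at P8 (n = 4) and 0.09 at P21 (n = 5). All P21 arrays stood above all P8 arrays. The P3 arrays ran from below the lowest P8 array to above the highest P21 array.

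The window before the Gfap start is printed because some genes of the reactive list shared the array order of Gfap at P3. The capitals mark TTC and GAA with 4 free bases between them, from -196 to -187. Whether this stretch has a part in that order was not tested. It lies at chr10:88361662-88361911 on the minus strand of GRCr8.
Gfap: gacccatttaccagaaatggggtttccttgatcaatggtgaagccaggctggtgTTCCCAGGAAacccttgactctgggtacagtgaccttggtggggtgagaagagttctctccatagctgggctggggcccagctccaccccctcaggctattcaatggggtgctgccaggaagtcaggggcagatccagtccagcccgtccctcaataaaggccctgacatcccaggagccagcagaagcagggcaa

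None of the 3 changes of Gfap passed the threshold. P8 minus P3 was -0.95 ± 0.53 (adjusted p = 0.237), P21 minus P8 was 1.51 ± 0.55 (adjusted p = 0.0731) and P21 minus P3 was 0.56 ± 0.49 (adjusted p = 0.395). Over the 15 fits that left out an array, the adjusted p of P21 minus P8 ran between 0.0172 and 0.145. P3 replicate 3, the lowest array, decided both calls: without it P8 minus P3 was -1.37 (adjusted p = 0.031) and P21 minus P8 stayed at 1.51 with an adjusted p of 0.0172. Fitted with P8 and P21 alone, which leaves the spread of P3 out, P21 minus P8 had an adjusted p of 0.00394. With the GAPDH covariate it was 1.08 (adjusted p = 0.291), and P21 minus P3 was -0.08.

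Genes of reactive astrocytes were spread over the P3 arrays as well. Their order by Gfap, lowest first, was replicate 3, 1, 4, 2, 5 and 6. Of 14 tested genes of the reactive list, Lcn2, Serpina3n and Timp1 put the 6 arrays in exactly that order. Of the 15650 probe sets tested, 68 besides Gfap did so, these 3 included. Spearman's rank correlation with Gfap over the 6 arrays was at least 0.8 for 8 of the 14, against 6.78% of the probe sets tested. Other genes of the list followed the order less, such as C3 (0.26) and Socs3 (0.09). Lcn2, an iron-binding secreted protein, read 4.94, 6.39, 3.05, 5.68, 6.76 and 8.47 on P3 replicates 1 to 6. Timp1, an inhibitor of metalloproteases, read 5.61, 6.51, 5.51, 5.84, 7.90 and 8.95 there. Replicates 5 and 6 were highest and replicate 3 lowest for Gfap and for both of these. Ccl2, a chemokine that was too dim on most arrays to be tested, read 7.58, 9.20, 1.20, 1.63, 8.84 and 8.88 on the P3 arrays, high on 4 and near the bottom of the scale on replicates 3 and 4, against at most 1.32 at P8 and 1.43 at P21. This likeness of order was noticed in the values and is a description of 6 arrays.

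Compared between ages, 9 of the 14 reactive genes fell between P3 and P21, with a median change of -1.92, where 21.8% of all genes rose and 19.8% fell. With the GAPDH covariate 8 fell, with a median of -2.78, where 1801 of the 15650 probe sets rose and 1603 fell. Between P3 and P8 6 fell, with a median of -1.90, where 8.79% of the 11835 genes rose and 7.44% fell. From P8 to P21 1 gene fell, Serping1, and the median was 0.08, where 8.89% of the genes rose and 9.46% fell. Fitted with P8 and P21 alone, only 8 genes of the list passed the filter on dim values. P3 arrays thus helped to put the others of the 14 into the test. The p-values of those genes against P3 are not independent of that. Serping1, an inhibitor of complement C1, was lower at P21 than at P3 (-4.32 ± 0.44, adjusted p = 2.46e-06), as were the complement component C3 (-1.89 ± 0.34, adjusted p = 4.64e-04), Timp1 (-3.02 ± 0.58, adjusted p = 7.66e-04) and the copper protein Cp (-3.33 ± 0.68, adjusted p = 0.00122). Cebpd, a transcription factor of the acute phase, was lower at P8 than at P3 (-2.58 ± 0.57, adjusted p = 0.00835). Stat3, Socs3 and Il6st were not called between any ages. Leaving out single arrays moved the counts between 6 and 10 at P21 against P3, with 6 without P3 replicate 5 and 6 without P21 replicate 3. From P8 to P21 the count was 0 or 1. At P8 against P3 the counts ran between 4 and 9, with 9 without P3 replicate 3 and 4 without P8 replicate 2 or 3. With the replicate number as a block 1 of the 14 was called in that comparison, with a median of -1.34. That fit called 1306 of the 15650 probe sets there, where the main fit called 2435. The mean of the 17 measured genes of the list was 4.18 to 7.19 on the P3 arrays, 3.60 to 3.98 on the P8 arrays and 3.53 to 3.98 on the P21 arrays. Microglia and blood vessels make some of these proteins too. The summed intensity of the 13 microglial markers was 301 to 486 at P3, 222 to 463 at P8 and 328 to 505 at P21, and 1 of its 10 tested genes changed from P3 to P21; their part in the reactive genes was not tested.

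**Figure D2:**
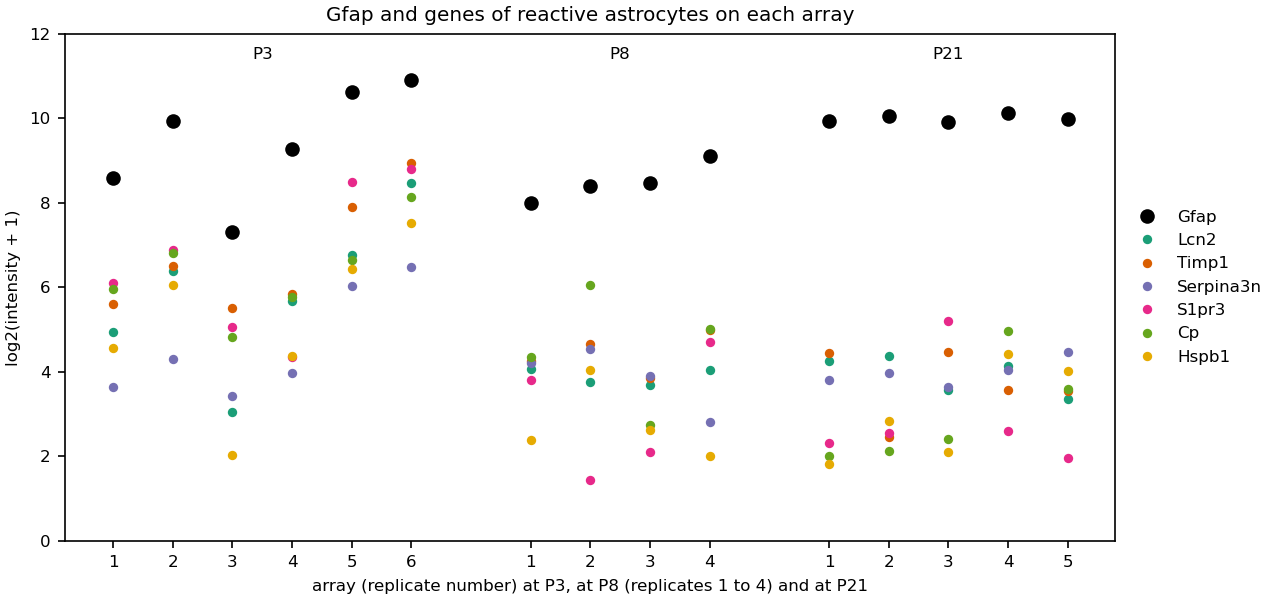
Each column is 1 array, by replicate number, at P3, at P8 (replicates 1 to 4) and at P21. Each point is the log2(intensity + 1) of Gfap (large black points) or of 1 of 6 genes of the reactive list. All 6 are among those with a rank correlation of at least 0.8 with Gfap over the P3 arrays. At P3 the points of Lcn2, Timp1 and Serpina3n are lowest on replicate 3 and highest on replicate 6, as those of Gfap are, and at P21 Gfap stands at 9.92 to 10.13.

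Gfap belongs to a family of intermediate filament genes. Vim, the vimentin of immature astrocytes, was lower at P8 than at P3 (-1.18 ± 0.24, adjusted p = 0.00498) and lower at P21 than at P3 (-1.91 ± 0.22, adjusted p = 1.07e-05). Nes, the nestin of precursors, was lower at P21 than at P8 (-1.44 ± 0.30, adjusted p = 0.00405).

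Aqp4, the water channel that sits in the endfeet on vessels, had 1 probe set called in 1 comparison. The one with the highest mean, 1372190_at, read 10.16 to 11.35 at P3 with a median of 10.75, then 10.18, 9.79, 9.85 and 11.12 at P8 and 10.15, 10.73, 10.45, 10.41 and 10.42 at P21. All 3 ages overlapped. Its changes were -0.53 ± 0.26 from P3 to P8 (adjusted p = 0.185), 0.20 ± 0.27 from P8 to P21 (adjusted p = 0.672) and -0.33 ± 0.25 from P3 to P21 (adjusted p = 0.309). P8 replicate 4 decided the first: without it the change was -0.82 (adjusted p = 0.025).

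Probe set 1368981_at was lower at P8 than at P3 (-1.51 ± 0.44, adjusted p = 0.0314). It read 5.34 to 7.43 at P3 with a median of 5.89, then 5.51, 3.04, 4.85 and 4.88 at P8 and 5.15, 5.54, 4.79, 5.14 and 5.02 at P21. P8 and P3 overlapped. P21 minus P3 was -0.95 ± 0.42 (adjusted p = 0.0821). P8 replicate 2, at 3.04, weighed most: without it P8 minus P3 was -1.002 (adjusted p = 0.092), and the call was also lost without P3 replicate 1 (-1.24, adjusted p = 0.0534), 2 (-1.45, adjusted p = 0.061) or 6 (-1.49, adjusted p = 0.0528). P21 minus P3 passed the threshold without P8 replicate 2 (adjusted p = 0.028). Probe set 1387397_at, above log2 4 on 8 of 15 arrays, averaged 3.75 at P3, 4.10 at P8 and 3.94 at P21 and was not called.

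Agrn, Dag1, Ezr and Dtna were tested as genes of Aqp4 anchoring or of fine astrocyte processes. Of these 4, 3 fell between P3 and P21, with a median change of -1.35, where 21.8% of all genes rose and 19.8% fell. Only Agrn was called with the GAPDH covariate, where 1801 of the 15650 probe sets rose and 1603 fell. Agrn, the agrin of basal laminae, averaged 9.19 ± 0.06 at P3 (SD, n = 6), 8.45 ± 0.46 at P8 (n = 4) and 6.82 ± 0.53 at P21 (n = 5). It was lower at P21 than at P8 (-1.63 ± 0.25, adjusted p = 5.71e-04) and than at P3 (-2.37 ± 0.23, adjusted p = 1.68e-06). Dag1, the dystroglycan that binds agrin, fell by 0.52 ± 0.15 from P3 to P21 (adjusted p = 0.0134), and Ezr, which links membranes to actin in fine astrocyte processes, by 2.17 ± 0.48 (adjusted p = 0.00233). The calls of Dag1 (-0.43, adjusted p = 0.207) and Ezr (-1.66, adjusted p = 0.113) were lost with the GAPDH covariate. Dtna, the dystrobrevin of endfeet, was not called (0.20 ± 0.26, adjusted p = 0.571). Kcnj10, the potassium channel of endfeet, was too dim to be tested.

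Gja1, the main connexin of astrocyte gap junctions, stayed within a narrow range. Probe set 1372002_at read 10.20 to 10.76 at P3 with a median of 10.71, then 10.59, 10.75, 10.95 and 11.12 at P8 and 10.75, 10.95, 10.65, 10.28 and 10.33 at P21. The ages overlapped. Its changes were 0.23 ± 0.17 from P3 to P8 (adjusted p = 0.404), -0.26 ± 0.18 from P8 to P21 (adjusted p = 0.351) and -0.04 ± 0.16 from P3 to P21 (adjusted p = 0.881). Probe sets 1369639_at, above log2 4 on 2 of 15 arrays, and 1369640_at, on 0, were not tested; they averaged 3.46 and 1.51 at P3, 3.62 and 1.36 at P8, and 3.61 and 1.92 at P21.

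The other main astrocyte connexin, Gjb6, was higher at each step. It read 0.77 to 4.19 at P3 with a median of 3.01, then 5.35, 5.17, 5.33 and 5.80 at P8 and 8.21, 8.12, 7.76, 8.03 and 7.55 at P21. The ages did not overlap. P8 minus P3 was 2.52 ± 0.46 (adjusted p = 0.00281), P21 minus P8 was 2.52 ± 0.48 (adjusted p = 0.00248) and P21 minus P3 was 5.03 ± 0.44 (adjusted p = 6.09e-07). Only 1 of the 6 P3 arrays was above log2 4, so the size of the differences from P3 rests on a signal too dim to be read. With intensities under 16 raised to 16, P8 minus P3 was 1.31, P21 minus P8 was 2.52 and P21 minus P3 was 3.83, all called. Gjb2, a connexin of astrocytes and meninges, was higher at P8 than at P3 (1.21 ± 0.30, adjusted p = 0.0151), and Gjc1, a connexin of vessels and developing neurons, was lower at P21 than at P3 (-1.50 ± 0.26, adjusted p = 3.02e-04, or 0.0547 with the GAPDH covariate). Among the 7 tested genes of gap junctions and their partners, Gja1 included, 1 rose and 2 fell between P3 and P21, where 21.8% of all genes rose and 19.8% fell.

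S100b, a calcium-binding protein of mature astrocytes that maturing oligodendrocytes make too, was higher at P21 than at P3. It read 8.88 to 10.04 at P3 with a median of 9.39, then 9.38, 9.03, 9.73 and 10.27 at P8 and 9.84, 10.27, 10.32, 10.36 and 10.13 at P21. P21 and P3 overlapped in 1 P21 array, replicate 1, and 2 P3 arrays, replicates 3 and 4. P21 minus P3 was 0.75 ± 0.25 (adjusted p = 0.0281), which is 1.68-fold. P8 minus P3 was 0.17 ± 0.27 (adjusted p = 0.713) and P21 minus P8 was 0.58 ± 0.28 (adjusted p = 0.173). The call was lost without P3 replicate 1 (0.64, adjusted p = 0.0619), 2 (0.65, adjusted p = 0.0637) or 5 (0.72, adjusted p = 0.0523), without P21 replicate 2 (0.73, adjusted p = 0.055), 3 (0.72, adjusted p = 0.0587) or 4 (0.71, adjusted p = 0.0598), and with the GAPDH covariate (0.77, adjusted p = 0.169). The oligodendrocyte genes rose over the same ages. Mbp, the myelin basic protein, was higher at P21 than at P3 by 3.17 ± 0.33 (adjusted p = 3.65e-06), and their part in S100b was not tested.

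The window before the S100b start, at chr20:12381082-12381331 on the minus strand of GRCr8, is printed as the other called gene with a match; the capitals mark TTGGCA from -37 to -32.
S100b: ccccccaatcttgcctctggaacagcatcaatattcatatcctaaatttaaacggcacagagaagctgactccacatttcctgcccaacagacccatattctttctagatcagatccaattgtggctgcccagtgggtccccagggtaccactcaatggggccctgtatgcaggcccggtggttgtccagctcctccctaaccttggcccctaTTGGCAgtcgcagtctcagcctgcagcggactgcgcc

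Of 15 tested genes of S100 proteins, aldolases, aldehyde dehydrogenases and intermediate filaments, S100b and Aldoc included, 5 rose and 6 fell between P3 and P21, where 21.8% of all genes rose and 19.8% fell. All 5 calls upwards were lost with the GAPDH covariate, and 4 fell, where 1801 of the 15650 probe sets rose and 1603 fell.

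Aldoc, the aldolase of astrocytes and of some Purkinje cells, did not pass the threshold between any ages. It read 8.45 to 9.77 at P3 with a median of 9.37, then 8.84, 10.005, 9.97 and 9.30 at P8 and 9.33, 9.34, 9.16, 9.91 and 9.55 at P21. The groups overlapped, with changes of 0.28 ± 0.28 from P3 to P8 (adjusted p = 0.528), -0.07 ± 0.29 from P8 to P21 (adjusted p = 0.895) and 0.21 ± 0.26 from P3 to P21 (adjusted p = 0.56).

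Counted over probe sets, 12 of the 15 passed the filter on dim values. Between P3 and P21 5 of the 12 changed, 2 higher and 3 lower, where 39.1% of all 15650 tested probe sets changed, 20.1% higher and 19.0% lower. Between P3 and P8 3 changed, all lower, where 15.6% changed, 7.81% higher and 7.75% lower. Between P8 and P21 3 changed, 1 higher and 2 lower, where 16.7% changed, 8.31% higher and 8.42% lower. The 1 higher is Slc1a2, also 1 of the 2 higher between P3 and P21, and its P21 arrays put it into the test. With intensities under 16 raised to 16, 0 were higher and 2 lower between P8 and P21. Of all 15650 probe sets 1416 were higher and 1332 lower in that fit. With 1 probe set a gene the median change of the 8 genes between P3 and P21 was 0.08. P21 and P3 did not overlap for 4 of the 12, Slc1a2 higher, which entered the test through its P21 arrays, and 3 lower, where 15.1% of the tested probe sets stood higher and 13.6% lower in that way. P8 and P3 did not overlap for 2, both of Slc1a3 and both lower, where 7.42% stood higher and 6.61% lower. P21 and P8 did not overlap for 4, with Gfap and Slc1a2 higher and 2 probe sets of Slc1a3 lower, where 7.31% stood higher and 6.74% lower.

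**Figure D3:**
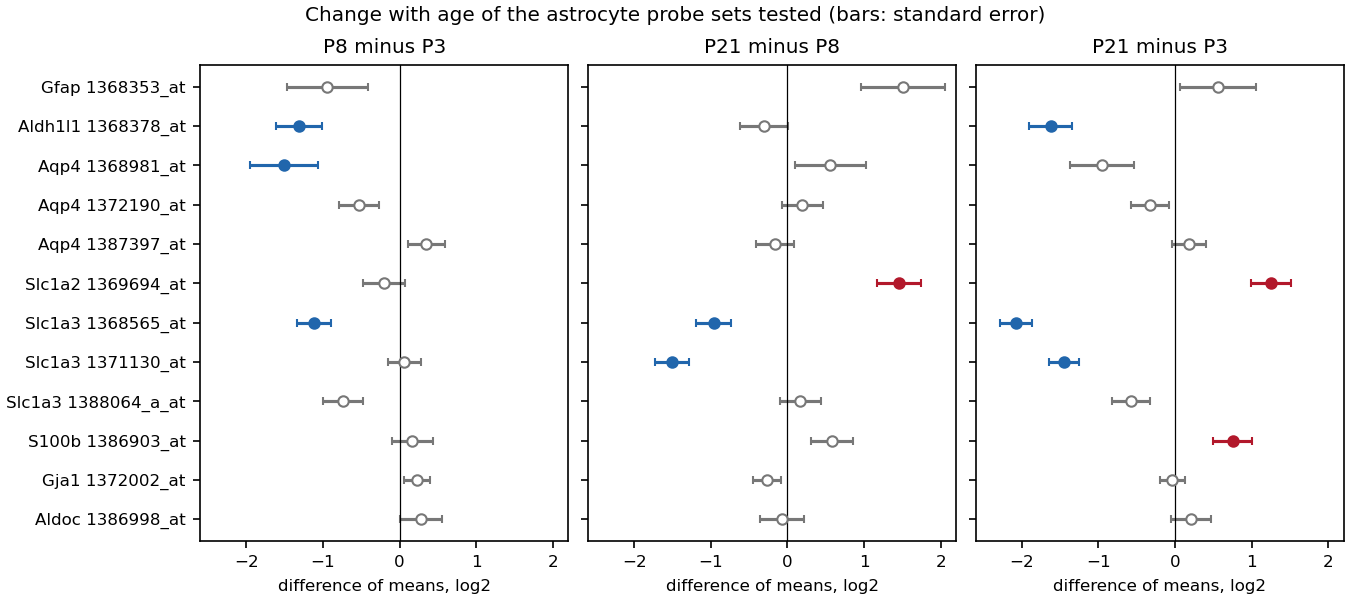
Each row is 1 of the 12 tested probe sets, and each panel a comparison: the point is the difference of means in log2 and the bar its standard error. Filled points passed the threshold (red higher, blue lower at the later age), and open points did not; Slc1a3, Aldh1l1 and 1 probe set of Aqp4 are the blue ones, and Slc1a2 and S100b the red.

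S100b and Aldoc put the P3 arrays in the same order, and the orders of the other 6 genes differed from it and from each other. P3 replicate 1 was the lowest array, alone or tied, for 7 of the 8 genes, Gfap being the exception with replicate 3, and replicate 6 was the highest for Gfap, Aqp4, Slc1a3 and Gja1. Aldh1l1 and Slc1a2 were highest on replicate 4, and S100b and Aldoc on replicate 3, the array on which Gfap was lowest.

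Of 23 tested other genes of differentiated astrocytes, 6 rose and 4 fell between P3 and P21, with a median change of -0.17, where 21.8% of all genes rose and 19.8% fell, shares near those of the list. Under the GAPDH covariate 5 rose and 2 fell, with a median of -0.29, where 1801 of the 15650 probe sets rose and 1603 fell. Between P3 and P8 4 rose and 1 fell, where 8.79% of the 11835 genes rose and 7.44% fell. Beside Gjb6, the neurotensin receptor Ntsr2 rose by 2.18 ± 0.22 from P3 to P21 (adjusted p = 2.93e-06), with steps of 1.08 ± 0.24 to P8 and 1.11 ± 0.25 from there. Itih3, which binds hyaluronan, was higher at P21 than at P3 by 2.36 ± 0.52 (adjusted p = 0.00222) and at P8 than at P3 by 3.25 ± 0.55 (adjusted p = 0.00178). Slc4a4, the sodium bicarbonate cotransporter, fell by 1.76 ± 0.25 from P3 to P21 (adjusted p = 6.07e-05), of which 1.31 ± 0.27 came by P8 (adjusted p = 0.00497).

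Genes of radial glia and immature astrocytes more often fell than rose. Of 18 tested, 9 fell and 2 rose between P3 and P21, with a median change of -1.07, where 21.8% of all genes rose and 19.8% fell. With the GAPDH covariate 5 fell and 1 rose, with a median of -0.58, where 1603 of the 15650 probe sets fell and 1801 rose. Fabp7, the fatty acid binding protein of radial glia, read 11.33 to 11.64 at P3 with a median of 11.39, then 10.65, 10.73, 11.45 and 11.31 at P8 and 6.59, 7.90, 7.69, 7.69 and 7.38 at P21. It was lower at P21 than at P8 (-3.59 ± 0.24, adjusted p = 1.44e-06) and than at P3 (-3.99 ± 0.22, adjusted p = 1.14e-08). Sox2, a transcription factor of neural precursors, was also lower at P21 than at P8 (-1.39 ± 0.28, adjusted p = 0.00371), as was Ptprz1, a phosphatase receptor of glial precursors (-1.15 ± 0.28, adjusted p = 0.0116). Pax6, a regulator of precursors, was lower at P8 than at P3 (-2.35 ± 0.44, adjusted p = 0.00319), and so was Nfib, a factor of gliogenesis (-1.39 ± 0.30, adjusted p = 0.00734). Slc1a3 is a gene of radial glia too, and the part of such cells in its fall was not tested.

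Of 14 tested genes for proteins that astrocytes secrete towards synapses, 3 rose and 5 fell between P3 and P21, where 21.8% of all genes rose and 19.8% fell. Under the GAPDH covariate 1 rose and 4 fell, where 1801 of the 15650 probe sets rose and 1603 fell. Sparcl1, or hevin, which promotes synapses, was higher by 0.79 ± 0.15 (adjusted p = 5.70e-04). Gpc4 and Gpc6, the glypicans that recruit glutamate receptors, were lower by changes of -1.32 ± 0.27 (adjusted p = 0.00123, or 0.12 with the GAPDH covariate) and -1.72 ± 0.27 (adjusted p = 1.63e-04). The growth factor Tgfb2 was lower too (-1.99 ± 0.16, adjusted p = 2.58e-07).

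**Figure D4:**
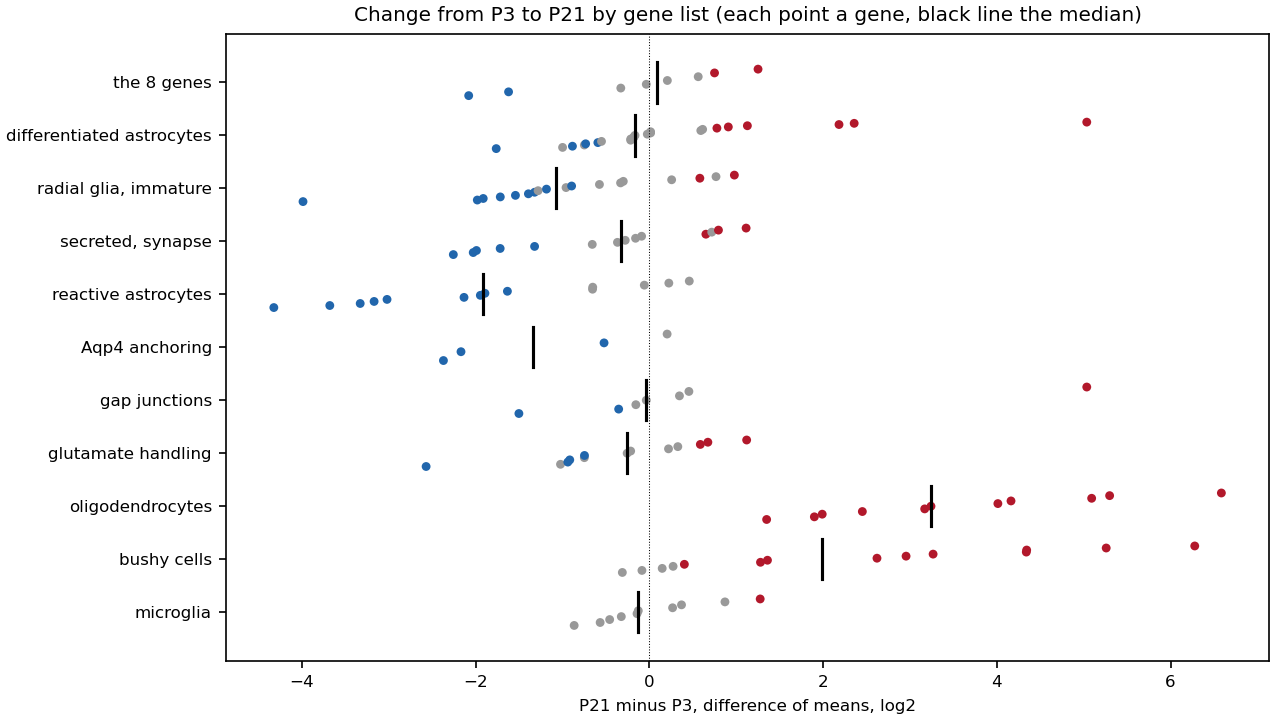
Each point is a gene, placed by its change from P3 to P21 in log2 (red called higher, blue called lower, grey not called), in rows by gene list, and the black line is the median of the row. The 8 genes spread on both sides of 0 (median 0.08), reactive genes lie mostly to the left (median -1.92), and oligodendrocyte genes all lie to the right (median 3.24).

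On P8 replicates 5 to 9 several of the 8 genes stood outside the range of P8 replicates 1 to 4, as did many other probe sets. Gja1 probe set 1372002_at read 13.07, 12.96, 13.66, 12.85 and 12.96 there, against 10.59 to 11.12 on P8 replicates 1 to 4. The dim probe sets 1369639_at and 1369640_at of Gja1 were higher too, by 2.14 and 2.93. Both probe sets of Slc1a2 were higher, by 1.81 and 2.13, and so was 1372190_at of Aqp4, by 1.86. S100b read 7.42, 6.96, 7.86, 6.20 and 7.37 on replicates 5 to 9, against 9.03 to 10.27 on replicates 1 to 4. Aldoc read 5.58, 7.71, 7.96, 7.68 and 5.27 on replicates 5 to 9, against 8.84 to 10.005 on replicates 1 to 4. In all, 6 of the 15 probe sets lay wholly above replicates 1 to 4 and 2 wholly below, where 28.2% and 12.0% of all 20832 probe sets did. Against all 15 other arrays, 3 lay wholly above, a share near the 19.3% of all probe sets, and 2 wholly below, where 7.84% did. The 3 were 1372002_at and 1369639_at of Gja1 and 1369694_at of Slc1a2, and the 2 were S100b and Aldoc. Gfap, Aldh1l1, all 3 probe sets of Slc1a3 and the other 2 of Aqp4 overlapped with replicates 1 to 4. The samples carry the same labels as replicates 1 to 4, and since they stand apart in their controls no test was made of this difference.

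With the 20 arrays in 1 fit and all P8 arrays as 1 group, Aldh1l1 and the same 2 probe sets of Slc1a3 were the 3 members called from P3 to P21. Slc1a2 (1.25, adjusted p = 0.121) and S100b (0.75, adjusted p = 0.487) were not. Gja1 became higher at P8 than at P3 in that fit (1.47, adjusted p = 0.0232) and lower at P21 than at P8 (-1.51, adjusted p = 0.0304).

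Some other genes ran in parallel with the 8 over the 15 arrays. Likeness is Pearson's r of log2 values over these arrays, which differ in age, so genes that change with age alike score high, and it is given as a description. Most like the mean of the 8 standardised genes were Bcan, the brevican of the perineuronal matrix (0.825), Trappc3 (0.819), Hepacam, a cell adhesion protein of astrocytes (0.816), Igdcc4, Fam220a and Gpt. Aldh1l1 was most like Stbd1 (0.962), Slc4a4 (0.947) and Aldh2 (0.944). Slc1a3 was most like Gprin1 (0.976), the cell cycle kinase Cdk4 (0.975) and the actin-binding Cnn3 (0.966). S100b ran with Ndufs3 (0.935), Hspbp1 and Got1, Slc1a2 with Rabl6 (0.919), Adap2 and Mlst8, and Gfap with Susd6 (0.866), Supt6h and Slc11a2. Aqp4 ran with Pno1 (0.843), Tpm1 and Tarbp2, Gja1 with Acsf2 (0.857), Aldh5a1 and Dad1, and Aldoc with Cxxc5 (0.884), Susd4 and Msrb1.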

How the data were processed

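The authors deposited intensities on a linear scale for 20 rat arrays, 1 for each probe set. The labels do not state the tool behind them; GCRMA is named, without version or role, per the submitters' processing notes. The mean intensity without the lowest and highest 2% was 100 on each array, and no further normalization was added. Of 31099 probe sets, 57 are controls, 20832 name 1 gene, 436 several and 9831 none. Symbols were updated through a RefSeq gene table of GRCr8 (20764 by Entrez identifier, 2 by accession, 66 kept). Scripts ran in Python 3.11.15.

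Values were analysed as log2(intensity + 1), which understates changes of dim genes. Group means were compared by the moderated fit of limma 3.58.1 (R 4.3.3) on 15 arrays, all 3 ages together, for the 15650 probe sets that exceeded log2 4 on 5 or more of them, with Benjamini-Hochberg adjustment over all of them and calls under 0.05; every adjusted p is from limma. A gene with several probe sets is represented in lists by the one with the highest mean. P8 replicates 5 to 9 were kept out of the fit and given apart. The fit was run on simulated data with independent normal noise and changes set only in bright probe sets. It therefore does not bear on dim ones or on RNA length. The median change over all tested genes was 0.04, 0.01 and 0.04 for P21 against P3, P8 against P3 and P21 against P8.

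All probe sets of the 8 genes are named, and of 18 other lists up to 4 genes with the smallest p per comparison; for likeness, the 6 most like the mean and the 3 most like each gene, with a group mean of at least log2 6. Glul, Dtna, Kcnj10, Stat3, Socs3, Il6st, Lcn2, Serpina3n, Ccl2 and Hspb1 are shown in addition and were chosen after their values were seen. The members and lists were chosen with earlier results of these data known, the promoter motifs too. The number of arrays limits the precision. The labels call the samples biological replicates. Alternatives were other sets of arrays, pseudocounts, filters, normalizations, 1 probe set a gene, the replicate number as a block, the GAPDH covariate and each array left out.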

Additional observations from a re-analysis of the deposited data

Results flagged for a closer look

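Among 60 groups of 4 to 6 arrays of the 15 probe sets, 3 had an array far from the others, where chance gives about 5% of groups. All 3 belong to Gja1. Probe set 1372002_at read 10.20 on P3 replicate 1, against 10.62 to 10.76 on the other 5 P3 arrays. On P8 replicate 7 it read 13.66, against 12.85 to 13.07 on the other arrays of replicates 5 to 9. The dim probe set 1369640_at read 1.14 on P3 replicate 3, against 1.54 to 1.68 on the others, where values are too low to be read.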

How the results depend on the processing

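Over all tested probe sets 6114 were called at P21 against P3 (3139 higher, 2975 lower), 2435 at P8 against P3 (1222 higher, 1213 lower) and 2619 at P21 against P8 (1301 higher, 1318 lower). With all 20 arrays and P8 as 1 group these counts were 2184 (1008 higher, 1176 lower) and 4489 (2743 higher, 1746 lower) in the first and second comparison, and 3 and 5 members were called at P21 against P3 and at P21 against P8. In that fit 4 genes reversed at P21 against P8: Slc1a1 0.15, Thbs2 -0.24, Tgfb2 0.62 and Olig1 0.63. With replicates 5 to 9 as a group of their own the counts were 1022 at P8 against P3 and 1291 at P21 against P8. Fewer arrays in the fit, with only the 2 ages compared, gave 1406 at P21 against P8, and the GAPDH covariate 3404 at P21 against P3. Leaving out single arrays gave 5451 to 6676, 1790 to 2501 and 2070 to 2797 calls, with 4 to 6, 2 to 4 and 3 to 4 members. The replicate numbers do not pair the samples: correlations of same-numbered arrays ran from -0.06 to 0.08 over 13 pairs, none above 0.1. With the number as a replicate block 1306 probe sets were called at P8 against P3, and Aqp4 1368981_at was not (-1.60, adjusted p = 0.062). That call was also lost with the 2 ages alone (adjusted p = 0.0678), with all 20 arrays (adjusted p = 0.124) and with replicates 5 to 9 as their own group (adjusted p = 0.0743), and that of S100b with the last of these (adjusted p = 0.0719). The cause of these moves was not tested. Over all alternatives other than left-out arrays, 353 of the members' values kept direction and call, 10 lost the call, 9 gained it and 10 changed sign uncalled.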
